A study of Mus musculus with 76 samples.

Results

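Distal H3K27ac regions of both stages were stretches of the mouse genome, away from gene starts, that carried a peak of acetylated histone H3 lysine 27 in every wild type library of the embryonic diencephalon. Wild type H3K27ac peaks of 5 libraries, 2 from embryonic day E11.5 and 3 from E17.5, were merged wherever they shared at least 1 bp, which gave 98868 regions. A region was kept when it lay over 5 kb from every protein-coding gene start of GENCODE on the mm39 build, held a peak of all 5 libraries and overlapped no wild type H3K4me3 peak at either stage. The regions were thus chosen by the H3K27ac and H3K4me3 calls of wild type tissue. In all, 3795 regions met this rule, 3.84% of the merged regions and 22.0% of the 17222 that were called in all 5 libraries.

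The tissue was diencephalon of C57BL/6J embryos that were either homozygous wild type or homozygous hs754-humanized, meaning that human sequence of the hs754 locus replaced the mouse sequence on chromosome 13. H3K27ac, H3K4me3 and H3K27me3 were profiled by ChIP-seq with 2 E11.5 replicates and 3 E17.5 replicates of either genotype, CTCF in 3 per genotype at the later stage alone, and polyadenylated RNA in 4 per genotype at each stage. Each E11.5 replicate pooled the tissue of 6 embryos of the same litter and each E17.5 replicate that of 3, so a value averages over embryos and over every cell type of the dissected tissue. The study compared the genotypes to learn what the human sequence changes, and the regions described here were defined in wild type tissue only.

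H3K27ac marks active enhancers and active promoters, and H3K4me3 marks gene starts, so acetylated regions far from gene starts and without H3K4me3 are commonly listed as candidate enhancers. Enhancers of developmental genes often lie far from the gene they act on, which makes the nearest gene start a label of position and not a measured target. CTCF is a zinc finger protein that binds a long DNA motif and, with cohesin, anchors chromatin loops, while H3K27me3 is deposited by Polycomb at silent developmental genes. Per the study's methods the H3K27ac antibody also bound peptides with acetylated lysine 5 of histone H2B, and acetylation of the 2 residues cannot be told apart in these peaks.

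The tissue label was checked on the RNA libraries, which held 16414369 to 24272569 counts on genes. Tcf7l2, a transcription factor of the Wnt pathway that is abundant in thalamus and habenula, was at 1329, 907, 1056 and 877 CPM (library-scaled counts) in the wild type E11.5 replicates and at 1359, 1258, 1183 and 1019 CPM at E17.5. The level was high in all 8 wild type libraries and the stages overlapped. The hindbrain genes Hoxa2, Hoxb2 and Hoxb3 were at 0.0530 CPM or less in the E11.5 wild type libraries and at 0 at E17.5. The whole list of 6 midbrain and hindbrain genes summed to 3.54, 2.12, 7.64 and 13.2 CPM at E11.5, then to 7.32, 2.88, 3.88 and 7.84 CPM, nearly all of it from the homeobox genes En1 and En2, so it was low but not absent. Tbr1, a T-box factor of cortical neurons, went from 0.564, 0.106, 0.658 and 0.243 CPM at E11.5 to 43.8, 27.8, 23.9 and 24.7 CPM at E17.5. Emx2, a homeobox factor of the same list, had the other order, with 57.7, 52.3, 39.2 and 39.3 CPM at E11.5 against 15.6, 8.97, 12.1 and 10.2 CPM. The 5 telencephalic markers summed to 43.1 to 61.3 CPM at E11.5, most of it from Emx2, and to 56.1 to 100.2 CPM at E17.5. Emx2 RNA was thus present at both stages, whereas Tbr1 was at 0.658 CPM or less at E11.5. Which cells carried these RNAs, and whether the dissected tissue differed between stages, was not tested. Red cell and choroid plexus RNA was present as well, with the embryonic globin Hbb-y at 780.5 to 1679 CPM at E11.5 and the transthyretin gene Ttr at 139 to 295 CPM at E17.5.

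One RNA library stood apart from its group. In E17.5 wild type replicate 1 the summed level of 9 housekeeping genes was 12303 CPM, against 6649.9, 7058 and 6069 CPM in the other replicates, and that of 16 genes of neuronal structure was 11006 CPM, against 13681, 12114 and 12932 CPM. Markers of microglia summed to 60.1 CPM there and to 31.1 or 31.2 CPM in the rest, telencephalic markers to 100.2 CPM against 56.1 to 61.1 CPM, and habenula markers to 172 CPM against 250.0 to 261 CPM. The share of reads on no gene was 48.1% in this library and 52.1% to 55.2% in the other 3. What set this library apart was not tested, and named genes whose call changed without it are also given without it, as are some others.

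The rule was applied in steps that left a clear order of signal. Of the 17222 regions called in all 5 libraries, 7942 were distal, and 4147 of those overlapped H3K4me3 and were set aside. The regions set aside had a median width of 2351 bp and median fold enrichments of 7.50, 7.14, 12.8, 13.3 and 13.8 in E11.5 replicates 1 and 2 and E17.5 replicates 1 to 3. The 3795 regions that were kept had a median width of 1871 bp and medians of 4.95, 4.78, 6.06, 6.58 and 6.52. Just outside the rule, 2994 distal regions without H3K4me3 were called in 4 of the 5 libraries, with a median width of 1259 bp and medians of 3.80, 3.99, 4.90, 5.05 and 5.05 over the libraries that called them. Fold enrichment here is the value in column 7 of the peak files, ChIP over control, and it chose the regions through the peak calls, so all of its values are a description. The library missing most often was E11.5 replicate 2, for 1642 of the 2994 regions (54.8%), and E17.5 replicates 2 and 3 were missing for 109 and 108.

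Among the closest regions kept at the distance threshold were those at Mvp (5017 bp) and Saysd1 (5043 bp, chr14:20193645-20195085). The closest regions left out lay 4982 bp from the start of Zbtb37, 4957 bp from Tox3 and 4925 bp from Vit. Only 130 regions called in all 5 libraries lacked H3K4me3 and were within 5 kb of a start.

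Widths ran from 280 to 13655 bp, with a 10th percentile of 959 bp, quartiles of 1318 and 2604.5 bp and a 90th percentile of 3550 bp, and 107 regions were wider than 5 kb. Together they covered 8.06 Mb. Distal regions called in both E11.5 libraries and in no E17.5 library (2797 regions, median 627 bp) or in all 3 E17.5 libraries and in neither E11.5 library (19472 regions, median 1094 bp) were narrower. These are named E11.5-only and E17.5-only regions below and also lack H3K4me3.

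The median distance to the nearest protein-coding start was 67169 bp, 1388 regions (36.6%) lay over 100 kb away and 17 over 1 Mb away. The farthest lay 2023933 bp from any start. Introns of protein-coding genes held 1768 regions (46.6%), 556 (14.7%) touched an exon and 1471 (38.8%) were intergenic. For 829 regions (21.8%) the whole region sat inside the body of a gene other than the one with the nearest start, as at Gbx2, whose 3 regions all lay within Agap1. Chromosome 11 held the most, 331 regions or 2.71 per Mb, chromosome 12 had 242, or 37.9 for every 100 protein-coding genes, the X chromosome had 46 (0.271 per Mb) and the Y chromosome 0.

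Regions often stood in runs. A neighbour within 10 kb was found for 925 regions (24.4%), in 387 runs of at least 2 and 30 runs of at least 4. The longest run, 16 regions at chr11:88378943-88456404, spanned 77462 bp and covered 45995 bp of it, inside the gene body of Msi2, which encodes the RNA-binding protein Musashi-2. A pair of further runs of 8 regions each, at chr11:88284916-88318450 and chr11:88333448-88366671, lay in the same gene body but nearer to the start of Ccdc182. Msi2 was thus the nearest start of 22 regions and Ccdc182 of 21, the highest numbers of any genes, and 20 of the 21 assigned to Ccdc182 overlapped Msi2. Fold enrichment over the 22 Msi2 regions ranged from 2.48 to 16.996 in the wild type libraries and over the 21 Ccdc182 regions from 3.01 to 12.6. Outside this locus the longest run was 6 regions at chr8:121009274-121037040, within Gse1, which encodes a coiled-coil protein found in chromatin complexes.

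Fold enrichment was modest at most regions and high at a few. The 5 wild type medians averaged 5.78 ± 0.860 (SD, n = 5), while the medians over all peaks of the same libraries were 4.81, 5.01, 4.90, 4.63 and 4.48. The median region ranked at the 52.7th and 45.8th percentile of the peaks of E11.5 replicates 1 and 2 and at the 61.0th, 68.1st and 68.8th percentile at E17.5. At E11.5 the regions held 13.7% and 15.1% of all peaks of a library, and at E17.5 7.63%, 6.15% and 5.94%. The widest peak in a region was narrower at E11.5, with medians of 729 and 605 bp against 1152, 1351 and 1346 bp, and the peaks of a library covered a median of 51.9% and 42.5% of the region at E11.5 against 73.7%, 84.1% and 83.3% at E17.5. Between 18.4% and 26.4% of regions held 2 or more peaks of a library.

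The ranking of regions differed between stages more than between replicates. Across the 3795 regions, Spearman's rho of fold enrichment was 0.6251 to 0.799 over the 4 pairs of libraries of the same stage (median 0.782) and 0.146 to 0.191 over the 6 pairs of different stages (median 0.163). Regions are not independent replicates, and the libraries of a stage also differ from the other stage in peak number, 32415 and 36146 peaks at E11.5 against 62715 to 77412 at E17.5. Width went with fold enrichment at rho 0.303 and 0.261 at E11.5 against 0.6004, 0.615 and 0.610 at E17.5. The summit of the highest peak lay a median of 110 to 149 bp apart between replicates and 190 to 200 bp apart between stages, and 57.8% to 66.3% of regions against 50.2% to 51.4% had the 2 summits within 200 bp.

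By raw fold enrichment, all 3 E17.5 libraries were above both E11.5 libraries in 1687 regions (44.5%) and below both in 513 (13.5%). Dividing each value by the median of that library over these 3795 regions gave 1053 regions above (27.7%) and 1140 below (30.0%), a near balance that the divisor itself brings about. On that relative scale 414 regions (10.9%) were over 2-fold higher at E17.5 by the mean and 277 (7.30%) over 2-fold lower. The log2 difference between stages had an SD of 0.78 and 10th and 90th percentiles of -0.89 and 1.05. The humanized libraries, which had no part in the choice of regions, gave the same sign in 81.8% of the 2442 regions outside chromosome 13 that all 5 of them called, with a rho of 0.839 across regions.

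The highest mean fold enrichment was found in an intergenic region of 5847 bp, 29687 bp from the start of Neurog3, a proneural transcription factor (chr10:61933329-61939175). It measured 5.82 and 3.90 at E11.5 against 63.4, 52.0 and 56.9 at E17.5. Every E17.5 library was far above both E11.5 libraries, and the relative difference, 3.19 on the log2 scale, was the greatest of all regions. Neurog3 itself was nearly silent, at 0.359, 0, 0.0506 and 0 CPM at E11.5 and 0.0523, 0, 0 and 0.0843 CPM at E17.5, so this strong region lay beside a gene with almost no RNA. A region 139438 bp from Abcc12, a transporter gene (chr8:87162569-87167877), had 8.17 and 7.32 at E11.5 against 46.1, 47.3 and 50.0 at E17.5. Another in an intron of Myt1l, which encodes a neuronal zinc finger factor, lay nearest to the start of Pxdn (chr12:29917576-29925144) and had 5.14 and 6.86 against 30.6, 56.8 and 54.9. In each of these the stages did not overlap.

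Some strong regions were already strong at E11.5. At chr11:32060961-32064728, 85551 bp from Il9r, values were 16.2 and 15.5 at E11.5 against 38.2, 48.3 and 19.6 at E17.5. Traf3ip2 was nearest to a region in an intron of Fyn, the gene of a Src family kinase (chr10:39415054-39420220), with 14.2 and 21.2 against 27.5, 34.4 and 38.3. Nsg2, which encodes an endosomal protein of neurons, was nearest to a region at chr11:32035688-32039574 with 13.6 and 13.5 against 30.0, 55.2 and 35.8. E17.5 values were above E11.5 values in all 3, by less than at Neurog3.

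The extremes of the stage difference, named here after their values were seen, also ran the other way. Near Gpam, the gene of a mitochondrial acyltransferase of lipid synthesis, a region at chr19:55130581-55134317 had 26.3 and 24.5 at E11.5 against 3.97, 3.32 and 3.97 at E17.5. The relative difference of -3.16 on the log2 scale was the lowest of all regions, and the humanized libraries repeated the order, with 18.8 and 28.9 at E11.5 against 4.11, 4.90 and 5.05. Next in rank were regions nearest to Kif16b, in an intron of Macrod2 (12.7 and 12.7 against 3.10, 3.90 and 3.73), Zfp462 (16.04 and 18.3 against 5.76, 5.52 and 4.54) and Mtmr10 (14.4 and 16.3 against 5.12, 5.28 and 5.13). At the other end, after Neurog3, stood a region near Chd6, which encodes a chromatin remodeller, with 3.12 and 4.29 against 36.9, 41.6 and 37.1.

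The widest region, 13655 bp at chr6:94604658-94618312, touched an exon of Lrig1, which encodes a membrane protein that restrains growth factor receptors, and had 5.92 and 7.46 at E11.5 against 17.2, 17.3 and 14.7 at E17.5. After it came regions of 12278 bp near Abcc12 (chr8:87106775-87119052), 10483 bp in an intron of Abhd2 and 10065 bp at an exon of Qki, the gene of an RNA-binding protein. At Abhd2 the values were 6.33 and 3.89 against 7.04, 9.51 and 12.1, the lowest of the widest 5 by the mean of the libraries, while the fifth widest, 9805 bp near A530016L24Rik, had 14.9 and 9.79 at E11.5 against 41.3, 48.2 and 34.7 at E17.5 and was also among the 10 with the highest fold enrichment.

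CTCF was the one factor measured, and it was read at E17.5 alone. A CTCF peak overlapped 21.3%, 16.9% and 17.7% of the regions in wild type replicates 1 to 3 and 15.3%, 14.6% and 16.5% in the humanized replicates, where chromosome 13 was left out. The same libraries gave 13.3%, 10.5%, 11.1%, 10.04%, 9.28% and 10.1% of E17.5-only regions and 6.15%, 4.79%, 4.93%, 4.44%, 4.14% and 4.55% of E11.5-only regions. The regions of both stages had the highest share in each of the 6 libraries.

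Against E17.5-only regions the difference was 6.33 percentage points ± 1.0002 (SD, n = 6 libraries), higher in 6 of 6, with p = 0.03125 by an exact two-sided permutation test that flips the sign within a library. Against E11.5-only regions it was 12.2 points ± 1.67, higher in 6 of 6 and again p = 0.03125 by the exact permutation test. That p is the smallest 6 libraries can give, and adjusted over the 4 share comparisons it was 0.0417 for both. The libraries read the same regions, so the p covers the spread between libraries and not between regions. E11.5-only regions by definition had no wild type H3K27ac peak at E17.5, the stage at which CTCF was read. Wider regions have more room for a peak, and with only the central 500 bp of each region counted the differences were 1.57 and 4.66 points, higher in 6 of 6 libraries each, p = 0.03125 by the same exact test. Where a library counted only if its peaks covered at least 50% of a region, in either class, 805 regions of both stages remained and the difference from E17.5-only regions was 3.76 points, higher in 6 of 6. With peaks of -log10 q of at least 5 the differences were 5.38 and 10.7 points and the exact p was 0.03125 as before, while the adjusted p was 0.0625, because an H3K27me3 comparison adjusted with them then had p = 0.5625. Within width classes wild type CTCF was found in 23.5% of the 51 regions of up to 600 bp, against 9.62% to 11.4% of E17.5-only regions, in 13.2% to 15.6% against 8.60% to 10.5% at 600 to 1000 bp and in 10.6% to 13.7% against 9.39% to 12.2% at 1000 to 1500 bp. The wider classes had 14.4% to 19.3% against 10.96% to 14.9% up to 2000 bp, 19.04% to 24.4% against 15.6% to 20.2% up to 3000 bp and 26.7% to 32.0% against 25.2% to 30.8% above that. E11.5-only regions had 4.50% to 5.65% in the narrowest class, 3.85% to 5.22% at 1000 to 1500 bp and 0% to 23.1% in the widest, where only 13 lay. In every class and library the regions of both stages had the highest share, by margins that differed between classes.

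Most regions had no CTCF at all. No wild type library called it in 2892 regions (76.2%), 1 library did in 225, 2 in 137 and all 3 in 541 (14.3%). The regions held 910, 707 and 739 CTCF peaks, 1.16%, 1.15% and 1.15% of each library, and those peaks had median fold enrichments of 6.15, 6.05 and 6.49 against 7.25, 7.53 and 7.88 for peaks elsewhere. The 541 regions with CTCF in all 3 libraries were wider than the 2892 without (median 2159 against 1768.5 bp), had more H3K27ac (median 6.99 against 5.82) and lay somewhat closer to starts (59948 against 68375.5 bp). A window with the base composition of a CpG island was found in 26.4% of the former and 18.3% of the latter. In 458 of the 541 (84.7%) the CTCF summit fell inside the region, a median of 466 bp from the H3K27ac summit, and in 280 (51.8%) it was within 500 bp of an edge.

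The strongest CTCF was found in a region of 1753 bp, 85459 bp from Mvb12b, which encodes a subunit of the ESCRT-I sorting complex (chr2:33863605-33865357). Its CTCF fold enrichment was 68.4, 60.7 and 62.5 in wild type and 57.4, 57.5 and 46.8 in humanized libraries, while H3K27ac was 5.82, 3.41, 5.97, 5.96 and 4.06. This region and those that follow were picked by their mean wild type CTCF, a choice that favours high wild type values, so the genotypes are given side by side and not compared. A region in an intron of Col18a1, a basement membrane collagen gene, had CTCF of 51.0, 67.1 and 72.5 in wild type and 67.0, 44.2 and 50.3 in humanized libraries. Tmem179 was nearest to a region with 41.6, 66.8 and 68.3 against 59.2, 49.3 and 64.7, Nav1, which encodes a neuron navigator protein that binds microtubule ends, held one in an intron with 54.0, 53.5 and 54.7 against 35.6, 53.1 and 42.0, and Tns1, a focal adhesion gene, was nearest to one with 50.0, 50.3 and 53.5 against 47.6, 45.5 and 40.0. At these 5 regions H3K27ac was between 3.41 and 7.22 in every wild type library, whereas the CTCF-bound region at Vps37c, the gene of another ESCRT-I subunit, also had high H3K27ac at E17.5 (4.43 and 5.43 against 13.1, 13.3 and 15.5) with CTCF of 52.4, 42.1 and 53.3.

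In 3 of the 8 regions with the strongest CTCF, the 14-base CTCF consensus was found in the 300 bp centred on the summit in wild type replicate 1, each time on the minus strand, and no match was found at Mvb12b, Col18a1, Plxna2, Ahdc1 or Vps37c. The matches are shown because they give the bases under the highest CTCF values, each read on the minus strand of GRCm39 from 5′ to 3′ with 10 flanking bases on either side and the matched bases in capitals. They lie at chr12:112518593-112518626 near Tmem179, 30 bp from the summit, at chr1:135598343-135598376 in the intron of Nav1, 5 bp from the summit, and at chr1:73865644-73865677 near Tns1, 11 bp from the summit, where the matched bases lie just past the edge of the region.
Tmem179: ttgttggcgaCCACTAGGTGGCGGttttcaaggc
Nav1: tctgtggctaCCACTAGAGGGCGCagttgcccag
Tns1: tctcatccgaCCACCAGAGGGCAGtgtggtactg
Of all CTCF peaks of that library, 5.49% of those in the regions had a match in the 200 bp centred on the summit, against 6.70% of those elsewhere, so the exact consensus was rare in both.

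Polycomb marking was uncommon. H3K27me3 overlapped 66 regions (1.74%) in both E11.5 wild type libraries, 176 (4.64%) in all 3 E17.5 wild type libraries and 37 in all 5, and 3301 regions (87.0%) had none. At E17.5 the wild type shares were 10.5%, 6.46% and 6.59% and the humanized shares 5.92%, 6.39% and 4.22%. Against E17.5-only regions the mean share was 6.68% against 3.76%, a difference of 2.92 points ± 0.783 (SD, n = 6), higher in 6 of 6 libraries, with p = 0.03125 by the exact two-sided permutation test and 0.0417 adjusted. In the same 6 libraries E11.5-only regions had higher shares than the regions of both stages, 13.7%, 9.08% and 9.76% in wild type and 9.14%, 9.18% and 6.55% in humanized libraries, a difference of -3.22 to -2.33 points that was not tested. The difference from E17.5-only regions was 1.72 points in the central 500 bp and vanished to 0.0501 points, exact p = 0.5625, when H3K27me3 peaks had to reach a -log10 q of 5. At E11.5 the shares were 2.95% and 1.90% in wild type and 3.39% and 3.97% in humanized libraries. Against E11.5-only regions, read in these 4 libraries, the mean shares were 3.05% and 3.26%, and the difference of -0.208 points ± 0.4999 was higher in 1 of 4, exact permutation p = 0.5. In the central 500 bp it was -1.45 points ± 0.427, lower in 4 of 4, with the smallest exact permutation p that 4 libraries can give, which is above 0.05.

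Regions with H3K27me3 stood near Iroquois genes on chromosome 13, the chromosome that carries hs754. Within 2 Mb of Irx1 or Irx2 there were 7 regions, 5 of which carried H3K27me3 in every wild type library of a stage. The one nearest to Irx2 (chr13:72445262-72448256, 328650 bp away) had it at both stages, with H3K27ac of 4.30 and 3.83 at E11.5 against 4.88, 6.20 and 4.85 at E17.5. The one nearest to Irx1 (chr13:72175823-72176986) and 3 nearest to Irx4 had it at E17.5. Among the latter, chr13:73182831-73184767 had the highest H3K27ac of the 7 at E11.5, 15.4 and 11.9, against 5.51, 7.56 and 7.57 at E17.5, when the Irx1 region was higher in replicates 1 and 3, at 7.22 and 8.57. The other regions of the window were nearest to Ice1 (3.80 and 4.57 against 3.53, 5.61 and 3.26) and Mrpl36 (6.84 and 5.58 against 4.20, 4.36 and 3.88), and neither had H3K27me3 in every library of a stage.

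RNA of the genes in this window was read beside the marks. Irx2 was at 104, 84.5, 107 and 96.5 CPM at E11.5, then at 34.6, 24.1, 26.5 and 22.9 CPM at E17.5 in wild type. The stages did not overlap, and Irx2 fell by 1.87 ± 0.19 on the log2 scale (adjusted p = 1.72e-05, edgeR quasi-likelihood test over all genes, n = 4 per stage). After ± stands the standard error, as for every log2 difference of RNA below. Irx1 fell by 1.86 ± 0.32 (adjusted p = 0.000616). Irx4 was at 1.28, 0.955, 0.556 and 0.973 CPM at E11.5, then at 0, 0, 0 and 0.126 CPM at E17.5, a drop to about 0 (adjusted p = 0.000439). In bulk tissue fewer cells of a type and less RNA per cell cannot be told apart, here and in every RNA result that follows. Ice1, a subunit of a complex for small nuclear RNA transcription, rose by 0.89 ± 0.25 on the log2 scale (adjusted p = 0.0118), or by 1.09 without E17.5 replicate 1, which had 125 CPM against 253 to 275 CPM in the other 3.

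The base composition of the regions was near that of the other distal regions. The central 500 bp had a median GC content of 48.6%, against 47.6% in E11.5-only and 47.2% in E17.5-only regions, and a ratio of observed to expected CpG of 0.215, against 0.187 and 0.223. A CpG island window, at least 200 bp with over 50% GC and a CpG ratio above 0.6, occurred in 19.7% of whole regions, against 4.93% and 13.2%, but in the central 500 bp the shares were 5.27%, 2.86% and 6.13%.

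Short motifs were counted on both strands of the central 300 bp and are descriptions of sequence only. The E-boxes CAGCTG and CAGATG, bound by bHLH factors, were in 26.5% and 28.1% of the regions, against 20.1% and 23.0% of all 98868 merged regions and 20.7% and 25.8% of E11.5-only and 20.8% and 24.3% of E17.5-only regions. TAATTA, a homeodomain motif, was in 8.80% of the regions, 7.04% of E11.5-only, 8.08% of E17.5-only and 6.69% of all merged regions, and ACAATG, a SOX motif, in 19.5%, 20.02%, 17.9% and 15.7%. TTGGCA, part of the site of NFI factors, was in 664 of the regions, 15.0% of E11.5-only and 19.2% of E17.5-only regions, and 16.1% of all. GGGCGG, an SP and KLF motif frequent at promoters, was in 6.22% of the regions, 6.04% of E11.5-only and 4.80% of E17.5-only regions and 12.7% of all merged regions. For the homeodomain, SOX, NFI and SP motifs another distal class was thus close to the regions or above them. CAGATG was less far from the other distal classes than CAGCTG. The CTCF consensus was in 2 of the 3795 regions in this central window.

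Sequence is given around the E17.5 replicate 1 H3K27ac summit of the 2 regions with the highest mean fold enrichment and of the widest region, because these are the strongest points of the most acetylated and the broadest stretches. Each run is 240 bases of the plus strand of GRCm39, from chr10:61936837-61937076 (near Neurog3, intergenic), chr8:87165632-87165871 (near Abcc12, intergenic) and chr6:94608995-94609234 (at Lrig1). Capitals mark the listed short motifs. The Abcc12 window held CAGATG on its minus strand, the Lrig1 window held CAGCTG, and none of the 6 motifs was in the Neurog3 window.
Neurog3: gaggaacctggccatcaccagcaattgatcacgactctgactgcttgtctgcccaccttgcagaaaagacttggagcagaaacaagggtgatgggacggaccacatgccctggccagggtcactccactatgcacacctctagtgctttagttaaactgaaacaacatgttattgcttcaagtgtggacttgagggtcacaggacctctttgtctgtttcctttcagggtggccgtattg
Abcc12: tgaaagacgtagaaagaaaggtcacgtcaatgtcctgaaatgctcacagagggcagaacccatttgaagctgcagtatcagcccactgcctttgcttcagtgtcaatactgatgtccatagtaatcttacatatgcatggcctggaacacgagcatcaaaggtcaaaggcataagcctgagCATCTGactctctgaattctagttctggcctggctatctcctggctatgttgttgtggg
Lrig1: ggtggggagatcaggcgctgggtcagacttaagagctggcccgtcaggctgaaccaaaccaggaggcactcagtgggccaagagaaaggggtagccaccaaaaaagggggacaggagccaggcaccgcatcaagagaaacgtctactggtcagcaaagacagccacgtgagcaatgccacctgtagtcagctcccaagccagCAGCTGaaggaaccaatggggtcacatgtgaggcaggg

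The 3795 regions had 2207 nearest genes. One region each fell to 1417 of them, 345 genes had at least 3 and 102 had at least 5, and those 102 took 680 regions (17.9%). In all, 2202 of the genes were in the count tables and 1943 passed the filter on low counts for the comparison of wild type stages. Nearest genes were well transcribed as a group: their median level was 3.38 to 4.38 CPM per kb of exon over the 8 wild type RNA libraries, against 0.863 to 1.26 for all protein-coding genes, and 5.88 to 6.89 for the genes with at least 3 regions. Nearest genes of E11.5-only regions had 3.31 to 3.65 and of E17.5-only regions 2.06 to 3.07.

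Between wild type stages 716 of the 1943 genes (36.9%) were higher at E17.5 and 480 (24.7%) lower at an adjusted p under 0.05 in edgeR, where the same calls among all protein-coding genes were 32.2% and 25.7%. Leaving out E17.5 replicate 1 gave 809 higher and 687 lower of 1953, against 38.3% and 37.3% of protein-coding genes. The humanized libraries gave 856 and 704 of 1944, against 39.8% and 40.6%. These shares were near those of all protein-coding genes and are not a result about the regions. Genes with at least 5 regions had 24 higher and 29 lower of 90. The direction went with the class of region as a description: 449 higher and 472 lower of 1460 nearest genes of E11.5-only regions, and 2099 and 1125 of 5081 of E17.5-only regions.

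The stage difference in H3K27ac of the humanized libraries was set beside the stage difference in wild type RNA, since these share no sample. Over 1422 genes the 2 went together weakly, with a rho of 0.123 across genes, which are not independent replicates. The genes were divided into 3 groups of 474 by the H3K27ac difference of their regions. From the lowest to the highest group, RNA was higher at E17.5 for 160, 169 and 191 genes (33.8%, 35.7% and 40.3%). It was lower for 133, 131 and 90 (28.1%, 27.6% and 19.0%). Among all protein-coding genes the shares were 32.2% and 25.7%, so the lowest and middle groups were near them. Without E17.5 replicate 1 of wild type RNA the counts were 176, 198 and 215 higher and 188, 177 and 149 lower, in the same order. The shares of all protein-coding genes were then 38.3% and 37.3%.

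Genes with many regions were found on either side of the stage comparison. Zfp36l1, with 11 regions 121080 to 271901 bp from its start, encodes an RNA-binding protein that promotes mRNA decay. It was at 296, 321, 346 and 345 CPM at E11.5 and 57.2, 63.7, 68.7 and 59.1 CPM at E17.5 and fell by 2.41 ± 0.16 on the log2 scale (adjusted p = 1.16e-06, edgeR), with no overlap of stages. Its regions did not fall with it as a group: H3K27ac was lower at E17.5 in some, as at chr12:79925522-79927941 (10.3 and 8.75 against 8.38, 6.43 and 5.02), and higher in others, as at chr12:80015382-80019060 (6.02 and 6.34 against 13.03, 15.3 and 14.9). Gse1, with 13 regions, went from 69.5, 79.2, 58.2 and 66.2 CPM to 31.6, 20.4, 14.03 and 20.2 CPM and fell by 1.67 ± 0.25 (adjusted p = 0.000213). Msi2, with 22 regions, had 334, 226, 447 and 349 CPM against 139, 275, 234 and 246 CPM, and the stages overlapped. Its difference of -0.61 ± 0.26 did not pass (adjusted p = 0.0700), while without E17.5 replicate 1 it was -0.45 with an adjusted p of 0.0438, and leaving out E11.5 replicate 2 gave -0.75 with 0.0336. Ccdc182, with 21 regions, was low throughout, at 2.46, 3.34, 3.89 and 3.49 CPM against 0.418, 0.109, 0.249 and 0 CPM (adjusted p = 0.000150), so Msi2 was the one transcribed at a high level at this locus.

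Other genes of the first 12 by number of regions are given more briefly. Irs2, an adaptor of insulin signalling with 10 regions, had 83.4, 95.7, 72.0 and 82.4 CPM against 73.0, 58.1, 52.0 and 51.7 CPM and a difference of -0.51 ± 0.18 (adjusted p = 0.0295), which missed the threshold under several left-out replicates. Zmiz1, a transcriptional coactivator with 10 regions, had -0.33 ± 0.18 (adjusted p = 0.153), or -0.51 with 0.00113 without E17.5 replicate 1. Tmem161b, one of 3 genes tied at 9 regions and the only one of them given here, had 0.63 ± 0.47 (adjusted p = 0.269), or 0.94 with 0.00749 without that replicate. Eipr1, with 12, had 22.1, 23.9, 19.0 and 17.1 CPM against 49.6, 17.45, 22.1 and 20.8 CPM, and the difference of 0.41 ± 0.31 (adjusted p = 0.289) rested on replicate 1, and was -0.05 without it. Zfp608 had 12 regions and a difference of -0.12 ± 0.18 (adjusted p = 0.595), or -0.07 with 0.663 without it. The ribosomal protein gene Rps24, with 13, fell by 1.04 ± 0.27 (adjusted p = 0.00709), but processed copies of such genes can share its reads and its level is uncertain. Pabpc6, with 12 regions, was at 0.101 CPM or less in every wild type library.

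Neural progenitor genes made up one of the lists with most regions. Of 14 such genes 6 were nearest to a region, 23 regions in all, and at E17.5 5 of the 6 fell and Slc1a3, an astroglial glutamate transporter, rose. Over the whole list 12 fell and 2 rose, with or without replicate 1. Sox9, a factor of neural stem cells and glia, had 10 regions at 89779 to 406500 bp, all intergenic. It went from 142, 155, 149 and 171 CPM to 99.7, 51.1, 39.5 and 45.4 CPM and fell by 1.40 ± 0.28 (adjusted p = 0.00172), or by 1.79 without replicate 1, its highest E17.5 library. H3K27ac at chr11:112907535-112909321, by contrast, was 4.54 and 4.55 at E11.5 against 13.4, 11.7 and 11.1 at E17.5, and the region at chr11:113064646-113066083 carried CTCF at 39.3, 35.0 and 43.1. Sox2, a factor of neural stem cells, had 5 regions and fell by 0.65 ± 0.17 (238, 253, 232 and 236 against 199, 136, 136 and 144 CPM, adjusted p = 0.00885). One of them, chr3:35137202-35145787, was 8586 bp wide with 13.9 and 15.0 against 19.5, 10.7 and 19.6, and chr3:34464749-34467409 had 5.82 and 3.63 against 23.7, 13.6 and 22.4. Notch1, the receptor that keeps progenitors undifferentiated, had 3 regions within 23815 bp and fell by 2.69 ± 0.28 (201, 250, 176 and 199 against 51.8, 29.6, 22.4 and 25.2 CPM, adjusted p = 1.88e-05).

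Genes of neuronal structure moved the other way in RNA. Of 16 genes 10 were nearest to 26 regions, and all 10 rose, as did 15 of the 16 in the whole list with or without replicate 1. Rbfox3, the gene of the neuronal nuclear antigen NeuN, had 4 regions and rose by 1.67 ± 0.30 (30.8, 25.1, 23.2 and 24.98 against 147, 65.2, 60.1 and 60.02 CPM, adjusted p = 0.000907), or by 1.23 without replicate 1. Its intronic region at chr11:118681501-118686237 had 7.89 and 9.31 against 27.8, 24.8 and 26.3. Nrxn3 with 4 regions rose by 3.12 ± 0.23 (adjusted p = 2.18e-06), Celf4, a neuronal RNA-binding protein gene with 6 regions, by 2.56 ± 0.25 (adjusted p = 1.13e-05) and Ncam1, a cell adhesion gene with 3, by 2.02 ± 0.19 (adjusted p = 1.03e-05).

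Transcription factors of neurons moved in both directions. Of 22 listed 9 were nearest to 32 regions, 3 of which rose and 4 fell. In the whole list 8 rose and 11 fell, or 9 and 12 without replicate 1. Myt1l, with 4 regions, was at 14.5, 5.46, 15.1 and 11.96 CPM and then at 156, 386, 291 and 311 CPM, a rise of 4.59 ± 0.40 (adjusted p = 5.52e-06) with no overlap. At chr12:29405803-29409146, 168863 bp from its start, H3K27ac was 7.60 and 4.78 at E11.5 against 23.2, 16.9 and 25.2 at E17.5. Zfhx3, a zinc finger homeobox factor with 4 regions, rose by 1.12 ± 0.19 (adjusted p = 0.000586). Sox11, a factor of young neurons with 8 regions, fell by 0.93 ± 0.24 (adjusted p = 0.00727) and Ebf1, with 3, by 1.31 ± 0.25 (adjusted p = 0.00110). Sox4, with 6 regions, had 971, 693, 905 and 869 against 883, 811, 635 and 587 CPM and a difference of -0.25 ± 0.19 (adjusted p = 0.293), or -0.36 with 0.0406 without replicate 1. Zfhx4, with 3, had 0.46 ± 0.28 (adjusted p = 0.187), or 0.65 with 0.00479 without it.

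Among thalamic genes 6 of 14 were nearest to 13 regions, of which Prox1 rose, and Irx1, Irx2 and Irx3 fell, while the whole list had 5 higher and 7 lower. Prox1, a homeobox factor of thalamic neurons, had 4 regions and went from 30.0, 21.4, 40.5 and 34.0 CPM to 134, 287, 210 and 236 CPM, a rise of 2.77 ± 0.29 (adjusted p = 1.83e-05). Its intronic region at chr1:189868864-189875395 was 6532 bp wide, had H3K27ac of 5.06 and 5.12 against 12.1, 14.9 and 9.20, and carried H3K27me3 at E17.5. Gbx2, a homeobox factor needed for the thalamus, had 3 regions and 41.4, 17.98, 12.8 and 9.37 CPM against 52.2, 25.9, 27.4 and 25.8 CPM. The stages overlapped and the difference of 0.68 ± 0.43 did not pass (adjusted p = 0.204), though leaving out E11.5 replicate 1, the highest of its group, gave 1.26 with an adjusted p of 0.0133, whereas leaving out E17.5 replicate 1, the highest of the other group, gave 0.35 with 0.422. Its region at chr1:89787574-89788806 had H3K27ac of 6.84 and 4.76 at E11.5 against 4.44, 3.76 and 3.17 at E17.5, with CTCF of 12.7, 11.4 and 17.1.

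The remaining lists held few regions. Of 12 NFI and glial genes 4 were nearest to 8 regions and all 4 rose, with 10 higher and none lower in the whole list or 10 and 1 without replicate 1. Nfib, a nuclear factor I gene with 4 regions, rose by 2.57 ± 0.26 (33.3, 20.9, 33.7 and 27.2 against 124, 246, 159.7 and 159.5 CPM, adjusted p = 1.63e-05). Of 18 diencephalic patterning genes 5 were nearest to 6 regions, and all 5 fell, Gli2, Barhl1, Dbx1 and Otx1 among them, with 3 higher and 13 lower in the list, or 4 and 14 without replicate 1. Lmx1b, the single hypothalamic gene of 17, had 4 regions and fell by 1.82 ± 0.28 (50.5, 45.4, 32.5 and 37.0 against 19.1, 8.21, 10.6 and 9.23 CPM, adjusted p = 0.000308), whereas 9 of the list rose and 1 fell, or 10 and 3 without replicate 1. Of 17 prethalamic genes Dlx2 and Lhx5 were nearest to 4 regions and Lhx5 fell, with 7 higher and 8 lower in the list. Of 7 habenula genes Irx4 alone had regions, 3 of them, and the list had 3 higher and 3 lower.

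Lists of other cells and tissues served as a check on what the regions were near. Among 5 telencephalic genes Emx2 had 1 region and fell, whereas the whole list had 3 higher and 2 lower, with or without E17.5 replicate 1. Endothelial genes (Pecam1, Cdh5 and Kdr) had 3 regions and the microglial gene Csf1r had 1, and none of these 4 passed the test with all libraries. Without E17.5 replicate 1 Pecam1 fell by 0.58 (adjusted p = 0.00192), Cdh5 by 0.95 (adjusted p = 3.27e-05) and Csf1r by 0.53 (adjusted p = 0.0135), and Kdr had -0.20 (adjusted p = 0.163). Between humanized stages the same 3 fell, by 0.77 (adjusted p = 2.43e-05), 1.19 (adjusted p = 1.17e-06) and 0.74 (adjusted p = 0.000755). The list of endothelial genes had 2 higher and none lower, or 2 and 2 without replicate 1, and that of microglia 1 and 1, or 1 and 2. Of 6 meningeal genes Dcn with 2 regions rose and Foxd1 with 1 fell, with 1 higher and 5 lower in the list. No region was nearest to a housekeeping gene (0 higher and 5 lower of 9, or 7 lower without replicate 1), a blood gene (1 and 1 of 6, or 1 and 3), a choroid plexus gene (2 and 0 of 4, or 3 and 1) or a midbrain or hindbrain gene (0 and 0 of the 2 tested, or 0 and 1). In total 52 of the 185 listed genes were nearest to 131 regions (3.45%).

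Of the 345 genes with at least 3 regions 309 were tested, and 164 passed between wild type stages without any overlap of their values, 86 higher (27.8%) and 78 lower (25.2%) at E17.5. Of tested protein-coding genes 27.4% and 22.6% did so, which is near the shares of these genes. Among the largest rises were those of Myt1l and of Npvf, a neuropeptide gene, which had 5 regions and was at 0 CPM in all 4 E11.5 libraries and at 2.04, 0.924, 1.29 and 1.73 CPM at E17.5 (adjusted p = 9.30e-05, edgeR). Plcb1, a phospholipase gene with 3 regions, rose by 4.19 ± 0.40 (6.77, 2.39, 6.17 and 4.54 against 45.0, 107, 99.9 and 116 CPM, adjusted p = 1.11e-05). Dscaml1, a cell adhesion gene with 4 regions, rose by 3.80 ± 0.40 (adjusted p = 2.12e-05). The regions of Npvf were acetylated at E11.5, when the gene gave no RNA in any wild type library.

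The largest falls, beside those of Irx4 and Ccdc182, were of other kinds. Lrtm1, with 4 regions, went from 8.56, 15.6, 29.9 and 29.7 CPM to 0.261, 0.979, 0.697 and 0.295 CPM, a fall by 5.26 ± 0.54 (adjusted p = 1.85e-05). Rad51b, a gene of homologous recombination with 5 regions, fell by 3.38 ± 0.23 (6.77, 7.11, 5.97 and 6.41 against 0.680, 0.707, 0.498 and 0.632 CPM, adjusted p = 1.33e-06) and Gins2, a subunit of the replicative helicase with 6 regions, by 3.13 ± 0.36 (19.9, 30.9, 17.95 and 23.2 against 4.86, 2.07, 2.04 and 1.60 CPM, adjusted p = 3.62e-05). Cxcr4, a chemokine receptor gene with 3 regions, fell by 2.85 ± 0.24 (93.1, 108, 87.8 and 109 against 20.02, 11.3, 13.9 and 10.4 CPM, adjusted p = 4.13e-06). In each of these every E17.5 library was below every E11.5 library.

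Genes nearest to the strongest regions showed no common direction. Nsg2 rose by 2.16 ± 0.25 (294, 228, 219 and 209.8 against 1638, 828, 942 and 873 CPM, adjusted p = 3.92e-05), or by 1.87 without replicate 1. Drc3, a cilium gene whose region lies in an intron of Tom1l2 (6.58 and 3.66 against 48.0, 45.3 and 31.8), rose by 2.25 ± 0.20 (2.05, 1.96, 2.12 and 1.70 against 9.67, 8.70, 8.76 and 10.4 CPM, adjusted p = 5.75e-06). Zcchc14 had H3K27ac of 4.56 and 4.47 against 44.6, 48.0 and 47.1 at chr8:122412782-122416841, and RNA of 170, 175, 165 and 176 against 220, 163, 144 and 142 CPM, a difference of -0.05 ± 0.18 that did not pass (adjusted p = 0.832), or -0.22 with 0.0837 without replicate 1. Abcc12 was at 1.29 CPM or less in all wild type libraries and rose by 1.71 ± 0.44 (adjusted p = 0.00726), while A530016L24Rik and Il9r were at 0.209 CPM or less. Pxdn, an extracellular matrix peroxidase gene, fell by 0.53 ± 0.16 (192, 246, 203 and 235 against 153, 159, 141 and 159 CPM, adjusted p = 0.0152), a call lost when E11.5 replicate 2 or E17.5 replicate 3 was left out. Traf3ip2 had 3.95, 2.23, 3.44 and 3.16 against 3.24, 9.13, 6.17 and 6.87 CPM, its stages overlapped, and its difference of 0.98 ± 0.32 (adjusted p = 0.0232) shrank to 0.09 with an adjusted p of 0.790 when the counts of 1 strand were used. The call was also lost without E11.5 replicate 2 or 4 (adjusted p = 0.0625 and 0.0594) or E17.5 replicate 2 or 4 (0.0659 and 0.0533). All other RNA values here sum both strands, and of the named genes Traf3ip2 was the only one whose call changed with the counts of 1 strand.

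Genes nearest to the strongest CTCF also went either way. Tmem179 rose by 3.67 ± 0.35 (3.85, 3.24, 2.78 and 2.80 against 73.5, 28.3, 30.5 and 30.5 CPM, adjusted p = 1.07e-05), or by 3.21 without replicate 1, Nav1 by 1.93 ± 0.18 (adjusted p = 9.20e-06) and Plxna2, a semaphorin receptor gene, by 0.87 ± 0.22 (adjusted p = 0.00685). Col18a1 fell by 2.59 ± 0.36 (188, 259, 167 and 209 against 65.2, 28.6, 21.6 and 22.1 CPM, adjusted p = 0.000150). Mvb12b had 168, 161, 131 and 134 against 430.1, 165, 166 and 148 CPM and did not pass (0.61 ± 0.33, adjusted p = 0.138), and the difference rested on replicate 1, being 0.09 with 0.556 without it. Ahdc1 did not pass either (0.72 ± 0.31, adjusted p = 0.0726), with 0.28 and 0.143 without replicate 1 and 0.88 and 0.0463 without E17.5 replicate 3. Tns1 (-0.56 ± 0.30, adjusted p = 0.141) and Vps37c (-0.33 ± 0.26, 0.307) passed only without replicate 1, at -0.98 with 0.000137 and -0.68 with 0.000781.

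The humanized peak lists were read outside chromosome 13, where the exchanged sequence moves the coordinates. Of 3629 regions there, 90.4% and 90.1% had a peak in the humanized E11.5 libraries and 95.3%, 94.2% and 81.4% at E17.5, with median fold enrichments of 5.55, 5.48, 6.29, 6.17 and 5.14 where called. All 5 humanized libraries called 2442 regions (67.3%) and none of them called 2. Humanized H3K4me3 peaks, which the rule did not use, overlapped 118 (3.25%) and 89 (2.45%) regions at E11.5, against 22, 10 and 16 regions at E17.5. In the same E11.5 libraries they overlapped 1.58% and 0.978% of E11.5-only and 0.103% and 0.108% of E17.5-only regions. The rule fixed the wild type calls of H3K27ac and H3K4me3, so the humanized shares of these marks do not compare the genotypes. The third humanized E17.5 library also had the fewest H3K27ac peaks of its stage, 47127 against 62715 to 77412 in wild type.

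CTCF at the regions was compared between genotypes over libraries. The share was 15.5% ± 0.953 in humanized and 18.7% ± 2.37 in wild type (SD, n = 3 each), a difference of -3.24 points with p = 0.1 by an exact two-sided permutation test, the smallest p that 3 against 3 can give. It was -1.89 points (exact permutation p = 0.2) without wild type replicate 1, which had the most CTCF peaks, and also -1.89 points in the central 500 bp of each region. The humanized libraries held 54853 to 59841 CTCF peaks in the genome and the wild type ones 61577 to 78657, so the lower share went with shorter lists, and their part in it was not tested. Of 519 regions outside chromosome 13 with CTCF in all 3 wild type libraries, 416 (80.2%) had it in all 3 humanized ones and 20 in none, and 0 regions had it in all 3 humanized libraries and in no wild type one, counts that start from the longer wild type lists.

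RNA was compared between genotypes on every chromosome, and the 2 methods differed by 1 nearest gene. At E11.5 edgeR called 0 of 1891 nearest genes at an adjusted p under 0.05, against 0% of protein-coding genes, with 136 (7.19%) at an unadjusted p under 0.05, against 5.68%. DESeq2 called 1 nearest gene and 0.0114% of protein-coding genes. That gene, Serinc5, which encodes a membrane protein and is named after its values were seen, had 1 region, lay on chromosome 13, which carries hs754, and was at 33.0, 33.5, 44.2 and 46.0 CPM in wild type and 8.23, 22.1, 19.0 and 7.46 CPM in humanized libraries. The genotypes did not overlap, with a log2 difference of -1.50 ± 0.31 and an adjusted p of 0.0317 in DESeq2 but -1.49 and 0.577 in edgeR. The study also called Serinc5 at E11.5, with DESeq2, and placed it far from hs754 on that chromosome. What set its level apart was not tested here. At E17.5 edgeR called 0 of 1948, against 0% of protein-coding genes, with 17 (0.873%) at an unadjusted p under 0.05, against 1.02%, and DESeq2 called 0 (20 at an unadjusted p under 0.05), also 0% of protein-coding genes. The stage by genotype interaction gave 0 of 1974, again 0%, with 183 (9.27%) at an unadjusted p under 0.05, against 8.84%. A p that misses the threshold does not show that the genotypes were alike.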

How the data were processed

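The authors deposited peak lists, made per replicate with Bowtie2 2.4.2 and MACS2 2.2.7.1 on mm39 or the humanized genome. Per the values, the deposited peak lists give a fold enrichment ratio over local background (column 7) and a q-value as -log10 (column 9). The deposited RNA-seq files give read counts per gene from STAR 2.7.9a. The count sum on genes was 16414369 to 24272569 per sample, and lines that name no gene, 48.1% to 58.4% of reads, were left out. The settings for H3K27me3 peaks are not stated by the authors. Peak lists hold no read counts, so the depth behind a fold enrichment is unknown.

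Regions, distances, shares and motifs were computed with Python 3.11.15, pandas 2.3.3, numpy 2.4.6 and pysam 0.24.0 on GRCm39 with GENCODE M39, a later release than the authors used. Genes were tested with edgeR 4.0.16 (quasi-likelihood, TMM, filterByExpr) in R 4.3.3, with an adjusted p under 0.05 over all genes, and with DESeq2 1.42.0 as an alternative. Shares were tested over libraries by exact two-sided permutation, adjusted over 4 comparisons. A replicate is a pooled litter. Chromosome 13 was left out of comparisons of humanized peaks, since its coordinates shift there, and kept in RNA comparisons. The inputs were not used.

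Named genes were those nearest to most regions (12), to the 10 highest and 5 widest regions and to the 8 with the highest CTCF, the 6 largest rises and falls among genes with at least 3 regions, listed genes with at least 3 regions, and genes of regions within 2 Mb of Irx1 or Irx2. The 17 gene lists covered thalamus, habenula, prethalamus, hypothalamus, patterning, progenitors, neuronal factors, glia, neuronal structure, housekeeping, and other cells and tissues. The regions and lists were chosen with earlier results of these data known. Alternatives were stricter peaks, 50% cover, start distances of 2 and 10 kb, other starts, H3K4me3 in every library of a stage, the central 500 bp, wild type libraries only, the gene around a region, DESeq2 size factors, DESeq2, no filter, the strand column, a replicate block and each replicate or list left out. Results of a few single genes are not reported here, and counts over gene lists and regions still include them.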

Additional observations from a re-analysis of the deposited data

Results flagged for a closer look

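In groups of 4 RNA libraries, the gap between the highest or lowest library and its nearest neighbour was divided by the range of the group, and values above the 95% critical value of Dixon for 4 samples are given here. Of 164 groups looked at, 25 stood apart (15.2%), where chance gives about 1 in 20, and in 18 of the 25 the library was E17.5 wild type replicate 1.

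In E17.5 wild type replicate 1 the gap was 0.856 of the range for Eipr1 (49.6 CPM against 17.45 to 22.1), 0.859 for Nsg2 (1638 against 828 to 942), 0.846 for Lrig1 (85.0 against 41.0 to 47.8), 0.934 for Mvb12b (430.1 against 148 to 166) and 0.951 for Tmem179 (73.5 against 28.3 to 30.5). It was 0.839 for Col18a1 (65.2 against 21.6 to 28.6), 0.83 for Ahdc1 (103 against 39.5 to 50.3), 0.902 for Vps37c (27.2 against 12.4 to 13.8), 0.858 for Gins2 (4.86 against 1.60 to 2.07) and 0.878 for Sox2 (199 against 136 to 144). It was also 0.94 for Rbfox3 (147 against 60.02 to 65.2) and 0.939 for Gbx2 (52.2 against 25.8 to 27.4). Ice1 was lowest there, with a gap of 0.855 (125 against 253 to 275). Among summed marker lists the gap was 0.849 for hypothalamus (461 against 251 to 283), 0.841 for housekeeping (12303 against 6069 to 7058), 0.998 for microglia (60.1 against 31.1 to 31.2) and 0.887 for telencephalon (100.2 against 56.1 to 61.1), with this library highest, and 0.881 for habenula (172 against 250.0 to 261), with it lowest.

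Of the other 7, 6 are given here, spread over libraries. At E17.5 in wild type, replicate 2 was highest for Zfhx3 (0.895, 498 against 332 to 349 CPM) and lowest for Mrpl36 (0.958, 6.47 against 11.1 to 11.3 CPM), and replicate 4 was highest for Irx4 (1, 0.126 against 0 CPM). At E11.5 in wild type, replicate 2 was highest for Rps24 (0.868, 1091 against 963 to 979.9 CPM), replicate 1 for Neurog3 (0.859, 0.359 against 0 to 0.0506 CPM) and replicate 4 for Il9r (1, 0.0811 against 0 CPM). Where every other library of a group was at 0 CPM, as for Irx4 and Il9r, the ratio is 1 whatever the remaining value. Such groups stand apart by construction, and they are still counted among the 25.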

How the results depend on the processing

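Of 1100 values under other settings, 302 summary values and 722 values of named genes kept their direction, their side of the threshold or their size. With H3K27ac peaks of -log10 q of at least 5 there were 1777 regions, a mean column 7 of 7.05, and 707 nearest genes called between wild type stages (422 higher and 285 lower) and 902 between humanized stages (499 and 403). With 50% cover there were 805 regions, a mean of 6.96, 366 (207 and 159) and 476 (248 and 228) genes, the CTCF difference from E17.5-only regions was 3.76 points (adjusted p 0.0417), and the H3K27me3 difference from E11.5-only regions was 0.187. Fewer regions were counted in both. That difference was also above 0 with starts of every gene type, 0.142, and 0.0202 without E11.5 H3K27ac replicate 1, and the cause was not tested. It was -0.423 over 2 kb from a start and -0.433 with H3K27me3 peaks of -log10 q of at least 5.

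With CTCF and H3K27me3 peaks of -log10 q of at least 5 the CTCF differences were 5.38 and 10.7 points, exact p = 0.03125 as before, and the H3K27me3 difference from E17.5-only regions 0.0501 (exact p = 0.5625). With that p among the 4 adjusted together, the adjusted p of the CTCF differences was 0.0625. Why the H3K27me3 difference shrank was not tested. With 3 wild type libraries alone they were 6.99, 13.3 and 3.37 points, where 0.25 is the smallest exact permutation p.

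With a library left out, the CTCF difference was 5.24 to 6.81 points from E17.5-only and 11.1 to 12.6 from E11.5-only regions, and -4.10 to -1.89 between genotypes. The H3K27me3 difference was 2.43 to 3.11 and -0.422 to 0.0202. With 5 libraries the smallest exact p is 0.0625. There were 3920 to 5447 regions, with median widths of 1687 to 1727 bp and a mean column 7 of 5.46 to 5.73. Nearest genes called were 1056 to 1534 between wild type stages (641 to 934 higher, 395 to 687 lower), 1502 to 1996 between humanized stages (818 to 1105 and 665 to 891), and 0 between genotypes.

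DESeq2 called 1 nearest gene between genotypes at E11.5, where edgeR called 0. Over the libraries left out Eipr1 ranged from -0.0493 (without E17.5 replicate 1) to 0.596 on the log2 scale, and Zcchc14 from -0.220 to 0.0327 (without E17.5 replicate 3, and 0.0270 without replicate 4). Replicate numbers were tried as a block, which gave 1111 and 1552 genes between stages and 0 between genotypes, but no label pairs them. With this block Gbx2 passed between wild type stages in edgeR, at 0.84 on the log2 scale (adjusted p = 0.0220). Irs2 (-0.52, adjusted p = 0.0663), Pxdn (-0.52, 0.0545) and Traf3ip2 (0.92, 0.0665) no longer passed. The deviations of equal numbers correlated at -0.470 to 0.320 and -0.181 to 0.292 between wild type and humanized stages, and at 0.0399 to 0.136 and 0.0280 to 0.551 between genotypes at E11.5 and E17.5. Read depth under a peak could not be judged from the lists.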
